A study of Mus musculus with 14 samples.

Results

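The genes described here encode enzymes that make, interconvert or inactivate steroid hormones, together with the reductase that feeds electrons to microsomal P450 enzymes. They were Cyp17a1, Hsd3b5, Hsd11b1, Hsd17b2, Hsd17b6, Srd5a1, Akr1c6 and Por, 8 genes in all. A gene counted as measured where a probe set carried its symbol and no other, and 6 of the 8 did so, out of 19237 genes measured that way. The probe set was to be chosen by the highest mean level over the 14 arrays, but each of the 6 genes had 1 such probe set, so that no choice arose. Srd5a1 and Por were not analysed here. Hsd3b5 also shares 2 probe sets with Hsd3b4 in the annotation, and these were left out.

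Livers came from 7 wild-type (WT) mice and from 7 mice in which the nuclear receptor LRH-1 (gene Nr5a2) carries the K289R substitution, a lysine replaced by arginine at a SUMO acceptor site. All mice were 17 to 19 weeks old, had free access to food and were killed at 7 am, and each array held the RNA of 1 liver. The sources used here do not give strain, sex or litter. Whole liver was profiled, so fewer cells of a type and less RNA per cell cannot be told apart.

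The liver is the main site where circulating steroids are reduced, oxidised and conjugated for excretion, and in rodents many of its steroid enzymes differ between the sexes under the control of growth hormone. LRH-1 and its relative SF-1 are known as activators of steroidogenic genes in the ovary and adrenal, and Cyp17a1 belongs to the genes they can activate. Cyp17a1 converts progestogens into androgen precursors, and Hsd11b1 regenerates active glucocorticoid inside the hepatocyte. Hsd17b2 oxidises estradiol and testosterone to weaker forms. Hsd17b6 oxidises reduced androgens, as known from the human enzyme. Hsd3b5 reduces ketosteroids in male mouse liver, and Akr1c6 interconverts the keto and hydroxy forms of sex steroids.

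Promoter sequence is shown for the tested genes that passed the threshold, Hsd11b1, which fell, and Hsd17b6, which rose. RefSeq entries on GRCm38.p6 were found for 6 of the 8 genes, and Cyp17a1 and Hsd17b2 had none. Each sequence gives the 250 bases before the annotated start on the strand of the gene. These are chr1:193242361-193242610 on the minus strand for Hsd11b1 and chr10:128007509-128007758 on the minus strand for the second listed start of Hsd17b6. Capitals mark matches to CAAGGNCA, the extended recognition site known for LRH-1 with its variable base left free.

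Hsd11b1: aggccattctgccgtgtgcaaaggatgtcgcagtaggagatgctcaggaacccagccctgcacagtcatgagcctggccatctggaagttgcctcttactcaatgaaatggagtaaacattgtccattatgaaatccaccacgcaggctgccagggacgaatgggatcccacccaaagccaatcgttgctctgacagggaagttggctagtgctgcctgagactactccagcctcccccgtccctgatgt

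Hsd17b6: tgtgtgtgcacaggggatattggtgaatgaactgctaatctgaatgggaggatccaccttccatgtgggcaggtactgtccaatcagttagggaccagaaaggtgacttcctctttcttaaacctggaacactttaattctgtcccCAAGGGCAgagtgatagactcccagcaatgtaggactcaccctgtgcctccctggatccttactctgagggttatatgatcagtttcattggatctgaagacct

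The Hsd17b6 window held CAAGGGCA on the plus strand of the gene, starting 104 bases before the start site. CAAGGNCA was found on either strand in 5.53% of the 32851 promoter windows of this length. The stricter forms CAAGGTCA and CAAGGCCA, present in 1.33% and 1.99% of windows, occurred in none of the 7 windows of these genes. Akr1c6 had 1 match, CAAGGACA, 42 bases before its start, and Hsd11b1, Hsd3b5, Srd5a1, Por and the first listed start of Hsd17b6 had no match. The windows of the Hsd17b6 starts overlap, however. The CAAGGGCA begins on the last base of the first window and runs past its edge, so it was not counted there. The STAT5 motif TTCNNNGAA, which carries growth hormone signals and lay in 7.02% of windows, was in none of the 7. None of the matches overlapped another motif.

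Levels are given as log2 of the deposited intensity plus 1, and a difference is the K289R mean minus the WT mean on that scale with its standard error (SE). A gene was called where limma's p, adjusted by Benjamini-Hochberg over all 19237 genes, was below 0.05. Array medians lay between 39.2 and 43.3 intensity units. The median of 1044 olfactory receptor genes, which liver does not express, was 3.34 to 3.52 over the arrays, and each of the 6 genes was above 7 on every array. Hepatocyte markers such as Alb were bright, with summed levels of 15.57 to 15.62 in WT and 15.52 to 15.67 in K289R livers. The 7 measured markers of adrenal and gonad cells, among them Cyp11a1 (3.85 in WT) and Mc2r (3.23 in WT), had means of 3.23 to 5.98 and none passed the threshold, with summed levels of 7.57 to 7.89 in WT and 7.63 to 7.92 in K289R livers. Of the 6 Kupffer cell markers 2 fell, Vsig4 by 0.75 ± 0.12 (adjusted p = 0.000102) and Adgre1 by 0.42 ± 0.13 (adjusted p = 0.0324), with summed levels of 10.49 to 10.77 in WT and 9.85 to 10.75 in K289R livers. Of the 6 stellate cell markers 2 rose, Des by 0.39 ± 0.10 (adjusted p = 0.011) and Reln by 0.22 ± 0.08 (adjusted p = 0.0474), with summed levels of 10.98 to 11.19 in WT and 10.99 to 11.35 in K289R livers. Of the 8 hepatocyte markers Hpx rose by 0.14 ± 0.04 (adjusted p = 0.0139), and no marker of cholangiocytes or endothelium passed. The part of these cells in the results was not tested. Nr5a2 itself stood at 8.77 ± 0.09 in WT and 8.76 ± 0.22 in K289R livers, which checks no label, since the substitution leaves the transcript in place.

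Arrays of replicates 1 to 4 and of 5 to 7 stood apart in an earlier look at these data, a division that the labels do not make, so values are also given within each set.

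Cyp17a1 was higher in K289R livers. Its level ran from 7.13 over a median of 8.03 to 8.83 in WT livers and from 8.73 over 9.33 to 9.95 in K289R livers. No WT array reached 6 of the 7 K289R arrays, and the overlap came from WT replicate 5 at 8.83 and K289R replicate 4 at 8.73. The means were 7.80 ± 0.64 and 9.28 ± 0.40 (SD, n = 7 each), a difference of 1.48 ± 0.23 (SE) or a fold of 2.80, with a 95% interval of 2.01 to 3.90. The gene was singled out for a rise already known from these arrays, so no p is given for this difference.

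Among WT livers Cyp17a1 lay at 7.13 to 7.25 in replicates 1, 2 and 4 and at 8.03 to 8.83 in the others. By set, WT replicates 1 to 4 lay at 7.13 to 8.03 and WT replicates 5 to 7 at 8.06 to 8.83. Replicate 3, at 8.03, was thus close to the lowest array of the other set, replicate 7 at 8.06. The K289R sets overlapped at 8.73 to 9.95 and 8.91 to 9.33. The genotype difference was accordingly 2.01 ± 0.22 among replicates 1 to 4 and 0.79 ± 0.18 among replicates 5 to 7. The difference between these values did not pass (limma interaction adjusted p = 0.339). Every K289R array exceeded every WT array within each set, narrowly so among replicates 5 to 7 (8.91 against 8.83). The share of all genes with this pattern within sets was not counted, and the gene was singled out for its rise.

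Hsd11b1 had lower transcript in K289R livers, with complete separation of the genotypes. WT livers lay at 10.29 to 10.53 with a median of 10.42, and K289R livers at 9.43 to 9.91 with a median of 9.73. The difference was -0.71 ± 0.06 (adjusted p = 1.29e-07), which makes WT livers 1.63-fold higher. All 7 K289R arrays were below all 7 WT arrays, a pattern found for 4.73% of all genes. The difference was -0.67 ± 0.06 among replicates 1 to 4 and -0.75 ± 0.11 among replicates 5 to 7, so the fall was of like size in both sets. H6pd, which encodes the enzyme that supplies Hsd11b1 with reduced cofactor inside the endoplasmic reticulum, went the other way and is described with the electron donors.

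Hsd17b6 was higher in K289R livers, with wide spread in both genotypes. WT livers ran from 7.87 over a median of 8.30 to 8.91, and K289R livers from 8.29 over 9.19 to 9.95. The difference was 0.80 ± 0.21 (adjusted p = 0.0103), a fold of 1.75 with a 95% interval of 1.28 to 2.38. Of the K289R arrays 5 were above each WT array, and K289R replicate 7, at 8.29, was below the WT mean of 8.35. Replicates 1 to 4 alone gave 1.18 ± 0.21 (adjusted p = 0.00134) and replicates 5 to 7 alone 0.31 ± 0.26 (adjusted p = 0.454). With the 4 sets as random blocks the value was 0.78 ± 0.27 (adjusted p = 0.0656). The interaction of genotype and set did not pass (adjusted p = 0.527).

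Akr1c6 fell just short of the threshold. WT livers lay at 11.08 to 11.31 with a median of 11.23, and K289R livers at 10.81 to 11.22 with a median of 10.98. All 7 K289R arrays were below the WT mean of 11.22, and 4 were below each WT array. The difference was -0.19 ± 0.07 (adjusted p = 0.0512), with an interval of -0.34 to -0.05. Leaving out 1 array moved the adjusted p between 0.0227 and 0.106 and put the gene past the threshold in 4 of 14 fits. Close relatives in the Akr1c family can share probes, so the level of this member is uncertain.

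Neither Hsd3b5 nor Hsd17b2 passed. Hsd3b5 had a WT median of 10.58 (10.11 to 10.80) and a K289R median of 10.59 (10.25 to 10.76), a difference of 0.05 ± 0.10 (adjusted p = 0.785) with an interval of -0.16 to 0.25. WT replicates 1 to 4 lay at 10.58 to 10.80 and WT replicates 5 to 7 at 10.11 to 10.35, the reverse of the order seen for Cyp17a1, so the difference by genotype was -0.18 ± 0.09 for replicates 1 to 4 against 0.35 ± 0.11 for replicates 5 to 7 (interaction adjusted p = 0.312). Hsd17b2 had a WT median of 10.46 (10.25 to 10.78) and a K289R median of 10.39 (9.91 to 10.86), where K289R single arrays held both the lowest and the highest value of all 14. Its difference was -0.09 ± 0.11 (adjusted p = 0.599), with an interval of -0.32 to 0.13.

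Of the 5 genes tested, leaving aside Cyp17a1, 1 rose and 1 fell. Over all genes 8.37% rose and 10.8% fell, so counts this small say little about the group. The plot of levels by array shows the separation of Hsd11b1 and the single overlap of Cyp17a1.

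**Figure D1:**
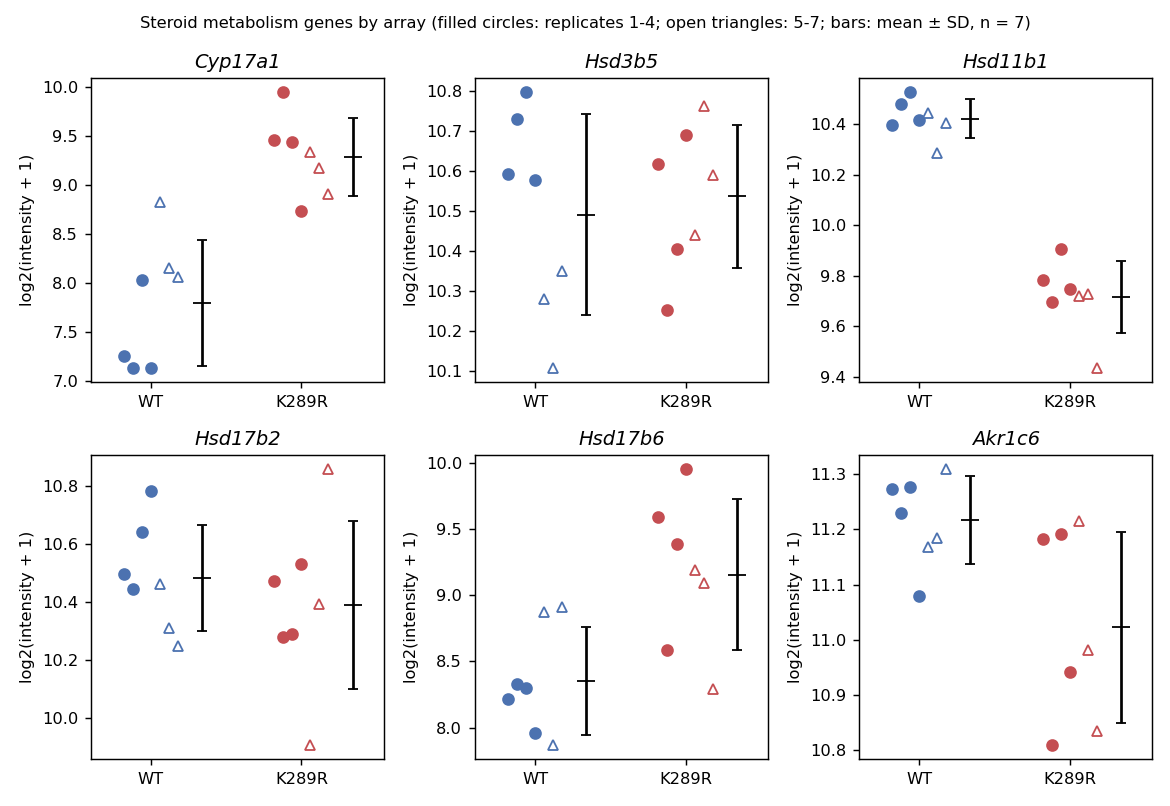
Level of each measured steroid gene (log2 of intensity plus 1, each panel on its own scale) on the 7 WT and 7 K289R arrays, with replicates 1 to 4 as filled circles, 5 to 7 as open triangles, and mean ± SD beside them. K289R arrays lie between 9.43 and 9.91 for Hsd11b1, below the WT arrays at 10.29 to 10.53, while for Cyp17a1 WT replicate 5 reaches 8.83 and K289R replicate 4 lies at 8.73.

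**Figure D2:**
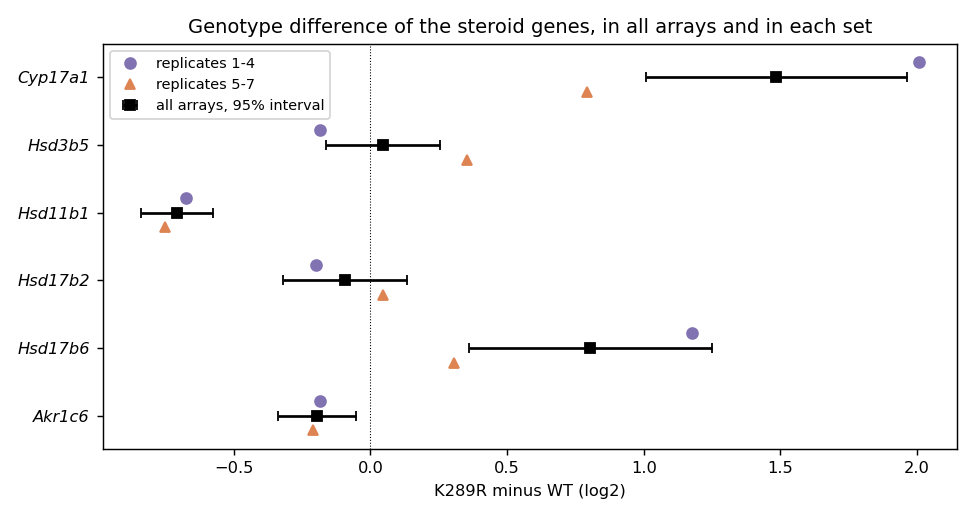
K289R minus WT difference (log2) of each gene over all 14 arrays with its 95% interval (squares), among replicates 1 to 4 (circles) and among replicates 5 to 7 (triangles). Hsd11b1 stays near -0.71 in both sets, whereas Cyp17a1 is at 2.01 and 0.79.

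Within genotypes, Cyp17a1 and Hsd3b5 tended to deviate in opposite directions from mouse to mouse, although the relation did not hold after correction. After each genotype mean was subtracted, Pearson's r over the 14 arrays was -0.66 (permutation p = 0.0233, adjusted p = 0.117 over 5 relations) and Spearman's rho was -0.70 (permutation p = 0.0186, adjusted p = 0.0931). The coefficient was -0.61 within WT and -0.77 within K289R livers, and -0.57 without the 2 arrays farthest from the median of Cyp17a1. When set means were subtracted as well it was -0.26, nearer 0 than over the sets together. The other 4 relations with Cyp17a1 had r of 0.15 for Hsd17b6, 0.12 for Hsd11b1, 0.08 for Akr1c6 and -0.41 for Hsd17b2, and none passed (lowest adjusted p = 0.285).

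The 5 genes that followed Cyp17a1 most closely among mice of the same genotype were Vnn1, Tmem120a, Med22, Pex11a and Cyp39a1, chosen for their coefficient among 9617 genes brighter than the median. Vnn1 encodes the pantetheinase vanin, with r = 0.85 and rho = 0.85 over 14 arrays. The other coefficients were 0.84 for Tmem120a, 0.83 for the Mediator subunit gene Med22, 0.83 for the peroxisome proliferation gene Pex11a and 0.83 for Cyp39a1, which hydroxylates oxysterols. The gene next in order had 0.83 as well, and the median over the 9617 genes was 0.10. After set means were subtracted the 5 coefficients were 0.62 to 0.77. All arrays share their processing, and no p is given because the genes were picked for this measure. None of the 5 passed the genotype comparison over all arrays, with differences of 0.04 to 0.09 for the first 4 and of 0.98 ± 0.36 (adjusted p = 0.0687) for Cyp39a1. Cyp39a1 passed in 4 of the 14 fits with 1 array removed. Within the set of replicates 1 to 4 the genotype difference was 1.92 for Cyp39a1, 0.43 for Pex11a and 0.95 for Vnn1. In the other set that of Vnn1 was -1.08. These genes were picked for following Cyp17a1, whose WT levels were lower in replicates 1 to 4 than in 5 to 7. The choice itself thus favoured unlike differences in the sets, so no p is given for them.

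**Figure D3:**
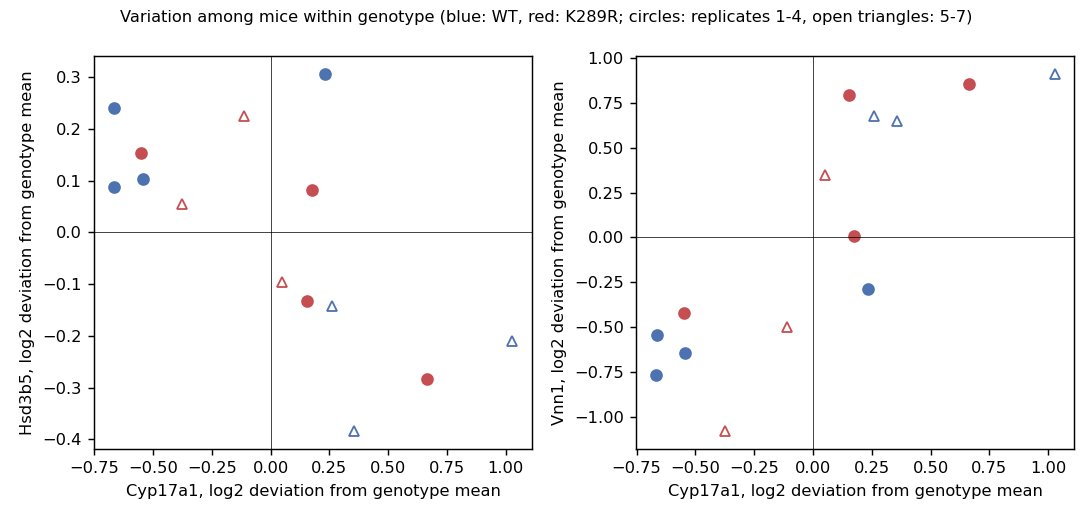
Deviation from the genotype mean (log2) of Hsd3b5 and of Vnn1 against that of Cyp17a1, 1 point per array, WT in blue and K289R in red, replicates 1 to 4 as circles and 5 to 7 as open triangles. Hsd3b5 falls as Cyp17a1 rises (r = -0.66), with the sets apart in WT, and Vnn1 rises with it (r = 0.85).

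In the list of steroid synthesis 2 of 13 measured genes rose and 1 fell, a share near that of all genes (8.37% higher, 10.8% lower), with a median difference of 0.01 beside 0.05 over all genes. The same all-gene shares and median are the background of each list that follows. Tspo, which binds cholesterol at the outer mitochondrial membrane, rose by 0.60 ± 0.10 (adjusted p = 0.000129), from 8.16 to 8.39 in WT to 8.39 to 9.16 in K289R livers. All 7 K289R arrays were above all 7 WT arrays, a pattern found for 2.82% of all genes, but the nearest arrays of the genotypes both rounded to 8.39. Fdx1, the ferredoxin that feeds mitochondrial P450 enzymes, fell by 0.32 ± 0.08 (adjusted p = 0.00423). Hsd3b6, a relative of Hsd3b5, rose by 0.23 ± 0.08 (adjusted p = 0.0471), which no longer passed in 10 of the 14 fits with 1 array removed. Other enzyme genes of steroid synthesis differed widely in level. Cyp11a1, Cyp21a1, Cyp11b1 and Hsd3b1 were dim, with WT means of 3.85, 5.45, 4.24 and 2.98. Hsd3b2 and Hsd3b3 were bright, with WT means of 8.99 and 9.89, and neither passed (adjusted p = 0.184 and 0.343).

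Among electron donors and microsomal partners, 2 of 10 rose and 3 fell, beside 8.37% and 10.8% of all genes, with a median of -0.09. That median turned to 0.01 without K289R replicate 7. H6pd rose by 0.38 ± 0.09 (adjusted p = 0.00428), from 9.93 to 10.10 in WT to 10.12 to 10.92 in K289R livers with no overlap, and by 0.29 without K289R replicate 2, its highest array. Cyb5a, the cytochrome that assists the lyase reaction of Cyp17a1, rose by 0.16 ± 0.04 (adjusted p = 0.0129), a call lost with median centring (adjusted p = 0.0953) and with sets as random blocks (adjusted p = 0.0713). Its mitochondrial relative Cyb5b fell by 0.30 ± 0.07 (adjusted p = 0.00319), and Pgrmc1, a heme protein that binds P450 enzymes, fell by 0.18 ± 0.05 (adjusted p = 0.00789).

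The reductases and dehydrogenases that act beside the members moved both ways, with 4 of 24 higher, 6 lower and a median of 0.02. Hsd17b10, a mitochondrial enzyme of fatty acid and steroid oxidation, rose by 0.50 ± 0.06 (adjusted p = 1.25e-05), and Dhrs11 rose by 0.40 ± 0.09 (adjusted p = 0.004). Akr1c20 fell by 0.48 ± 0.08 (adjusted p = 0.000286), and the lipid droplet protein gene Hsd17b13 fell by 0.31 ± 0.05 (adjusted p = 0.000358). For Akr1c20 and Hsd17b13 all K289R arrays were below all WT arrays. Akr1d1, which reduces steroid hormones and bile acid precursors, fell from 9.69 ± 0.12 to 9.28 ± 0.29 (adjusted p = 0.00817) and was named after its value was seen. Hsd11b2, which inactivates glucocorticoid and acts against Hsd11b1, was dim (5.21 ± 0.23 in WT) and did not pass, with a difference of 0.18 ± 0.11 (adjusted p = 0.263).

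Genes of steroid hydroxylation and conjugation were lower in 6 of 15 cases and higher in none, beside 10.8% lower and 8.37% higher over all genes, with a median of -0.17. The members that fell were glucuronosyltransferase genes, whose products attach glucuronic acid to steroids and other substrates, and Sult2a8, which encodes a sulfotransferase. Ugt2b35 lay at 8.92 to 9.23 in WT livers and far lower, at 7.69 to 8.54, in K289R livers, a difference of -0.99 ± 0.11 (adjusted p = 2.38e-06). Ugt2b34 fell by 0.74 ± 0.05 (adjusted p = 8.76e-09), Ugt2b5 by 0.71 ± 0.10 (adjusted p = 5.41e-05) and Ugt2b1 by 0.42 ± 0.07 (adjusted p = 0.000112). Ugt2b36 and Sult2a8 fell by 0.16 and 0.54. Ugt2b relatives are alike in sequence and can share probes, so how many separate genes fell is uncertain. Cyp7b1, which hydroxylates oxysterols and androgens, differed by 0.41 ± 0.18 (adjusted p = 0.124).

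**Figure D4:**
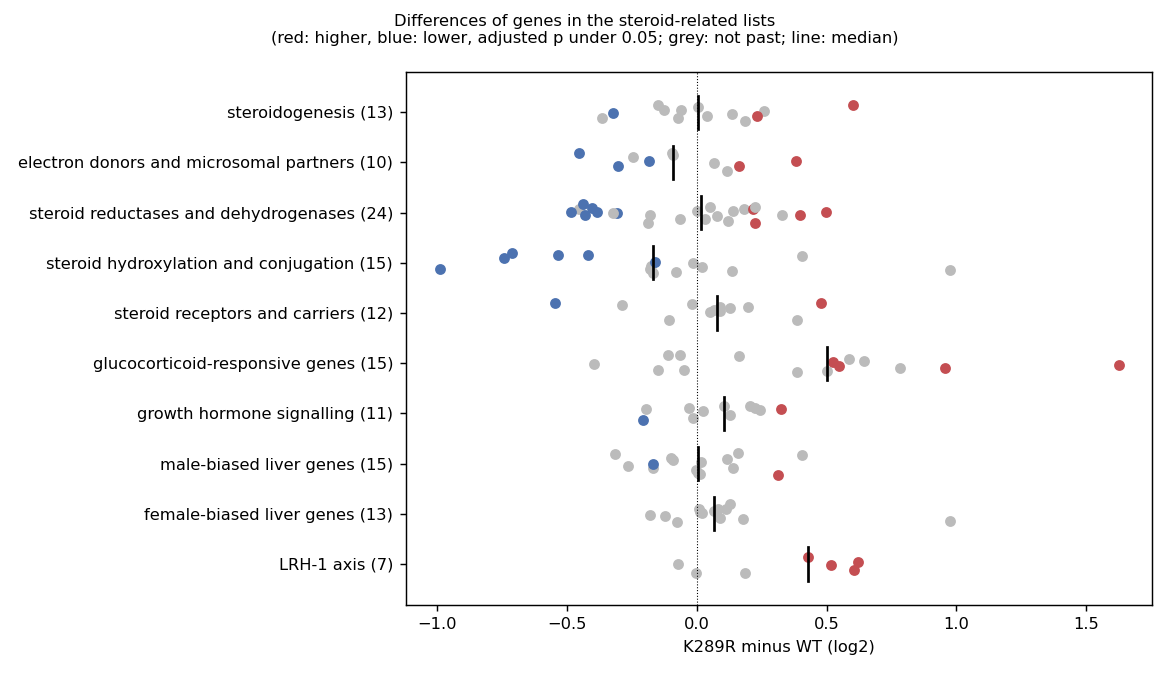
K289R minus WT difference (log2) of each measured gene in 10 lists, 1 point per gene, red where higher and blue where lower at an adjusted p below 0.05, grey otherwise, with the list median as a line and the number of genes in parentheses. The conjugation list reaches -0.99 with 6 lower genes, and the glucocorticoid-responsive list has its median at 0.50, which was 0.04 without K289R replicate 2.

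Of the receptor and carrier genes 1 of 12 rose and 1 fell, with a median of 0.08. Serpina6, which encodes the plasma carrier of corticosteroids, rose by 0.48 ± 0.05 (adjusted p = 2.65e-06), from 10.68 to 10.88 in WT to 11.05 to 11.38 in K289R livers with no overlap. Hsp90aa1, a chaperone of steroid receptors, fell by 0.55 ± 0.12 (adjusted p = 0.00331). The glucocorticoid receptor gene Nr3c1 differed by -0.02 ± 0.07 (adjusted p = 0.894) and the estrogen receptor gene Esr1 by 0.13 ± 0.06 (adjusted p = 0.159).

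Among 15 genes known to respond to glucocorticoids 4 rose and none fell, beside 8.37% and 10.8% of all genes. Their median difference of 0.50 rested on K289R replicate 2, without which it was 0.04 with 4 genes still higher, close to the median of 0.05 over all genes. Sgk1, a kinase gene, rose by 0.55 ± 0.07 (adjusted p = 1.15e-05), with K289R arrays at 6.79 to 7.02 above WT arrays at 6.24 to 6.59. Igfbp1, Pck1 and G6pc, which respond to feeding state too, rose by 1.62 ± 0.37, 0.96 ± 0.25 and 0.52 ± 0.14 (adjusted p = 0.00361, 0.00865 and 0.0116). With sets as random blocks Pck1 (adjusted p = 0.0623) and G6pc (0.0707) lost their calls.

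K289R replicate 2 was the highest of the 14 arrays for 9 of these 15 genes. The genes were Fkbp5, Per1, Zbtb16, Mt1, Mt2, Pck1, Igfbp1, Angptl4 and Cdkn1a, named after their values were seen. On that array the metallothionein gene Mt2 stood at 12.01, against 5.68 to 6.81 on the other K289R arrays, and Fkbp5, which encodes a receptor co-chaperone, at 7.54 against 5.78 to 6.16. The same array was the highest for Cyp17a1 (9.95) and H6pd (10.92). Without it the differences were 1.37 for Cyp17a1, -0.70 for Hsd11b1 and 0.90 for Hsd17b6, and those of Fkbp5 and Mt2 went from 0.39 to 0.16 and from 0.78 to -0.00445. Its part in the results was not tested beyond leaving it out.

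Growth hormone signalling sets the sex bias of liver genes, Hsd3b5 among them. In its list 1 of 11 genes rose and 1 fell, a share near the 19.1% of all genes called in either direction, with a median of 0.11. Stat5b, the transcription factor of the pathway, rose by 0.32 ± 0.08 (adjusted p = 0.00518), and Igf1, its secreted target, fell by 0.21 ± 0.05 (adjusted p = 0.00316) with no overlap. In the male-biased list 1 of 15 rose and 1 fell, with a median of 0.01. Elovl3, a fatty acid elongase gene, rose by 0.31 ± 0.05 (adjusted p = 8.21e-05), and the urinary protein gene Mup20 fell by 0.17 ± 0.06 (adjusted p = 0.0485), which no longer passed in 11 of the 14 fits with 1 array removed. No gene of the 13 in the female-biased list passed limma's threshold, and the smallest p belonged to Cyp2b9 (0.98 ± 0.40, adjusted p = 0.101) and Sult1e1 (-0.18 ± 0.08, adjusted p = 0.13). Cyp2b9 was scattered in both genotypes, with WT arrays at 4.20 to 6.37 and K289R arrays at 4.21 to 7.26, and it passed among replicates 1 to 4 alone, at 1.89 (adjusted p = 0.000432). Sult1e1, with WT arrays at 2.39 to 2.85, was dimmer than the olfactory receptor median.

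In the list of the LRH-1 axis, chosen with results of these arrays known, 4 of 7 genes rose and none fell, with a median of 0.43. Beside Cyp8b1, Apom, Prox1 and Nr0b2, at 0.62, 0.52, 0.43 and 0.61, the difference of Cyp17a1 was larger in size. Cyp17a1 was singled out for its rise, a choice that itself favoured a large value, and whether these values differ was not tested. With sets as random blocks Nr0b2 lost its call (0.59, adjusted p = 0.0625), leaving 3 of 7. Cyp7a1, at a WT level of 9.60, did not pass (0.19 ± 0.16, adjusted p = 0.463). Cyp11a1, the classical LRH-1 target of the ovary, differed by -0.07 ± 0.10 at a WT level of 3.85. Over the 10 lists together, which hold 128 measured genes beside the members, 19 rose and 19 fell. Over all genes 19.1% were called in either direction.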

How the data were processed

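Liver RNA (100 ng) of 14 mice was hybridised to Affymetrix arrays, 1 array per mouse. The deposited values are an intensity per probe set on a linear scale. The submitters' processing notes name Affymetrix Expression Console; its version, the background correction, the summarisation and the build are not given in the sources used here. Of 35556 probe sets, 21456 had 1 gene symbol, 2376 several and 11724 none in the platform annotation, leaving 19237 genes, each read from its brightest probe set over all arrays.

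From the deposited intensity, log2(intensity + 1) was computed and the 7 K289R arrays were compared with the 7 WT arrays in limma 3.58.1 (R 4.3.3, lmFit and eBayes with an intensity trend), with Benjamini-Hochberg adjustment over all genes and a threshold of 0.05, two-sided. The code was tested on simulated data. The p-values weigh each difference against the spread between these mice, and precision is limited by how many arrays there were. In the main fit the arrays of a genotype were treated as independent, although replicates 1 to 4 and 5 to 7 stood apart. Correlations used 100000 shuffles within genotype (20000 under each alternative). Planned for 7 relations, they were made over the 5 measured genes.

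The members and lists were chosen with earlier results of these data known. Named were all members, in each list up to 4 genes past the threshold with the smallest p (otherwise the 2 with the smallest p), and the 5 genes closest to Cyp17a1. Others named in the text were chosen for their role or after their values were seen. Same-numbered WT and K289R arrays correlated between -0.30 and 0.56, so the numbers were not treated as pairs. Alternatives were quantile normalization, median centring, other pseudocounts (none and 16), a constant variance prior, a filter on dim genes, averaging over probe sets, blocks for replicate number and for sets, each set alone, and leaving out arrays.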

Additional observations from a re-analysis of the deposited data

Results flagged for a closer look

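Within each genotype the gap of the highest or lowest array to its nearest neighbour was divided by the range of the 7 arrays and set against Dixon's 95% critical value. The test was made for 94 groups (47 genes in 2 genotypes), and 11 were past it, where chance gives about 1 in 20. No member was among the 11. The 47 genes included some that were named after their values were seen, so this count cannot be set against that rate.

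K289R replicate 2 accounted for 6 of the 11 as the highest array. Mt1, Mt2, Fkbp5, Zbtb16 and Angptl4 were tested after they had been seen to be highest on this array. Their ratios describe that array and are no separate evidence about it. The ratio was 0.888 for Mt1 (11.17, next array 7.14), 0.823 for Mt2 (12.01, next 6.81) and 0.78 for Fkbp5 (7.54, next 6.16). It was 0.753 for Zbtb16 (9.85, next 7.88), 0.644 for H6pd (10.92, next 10.41) and 0.637 for Angptl4 (9.72, next 8.11). WT replicate 5 was the highest WT array for Mt1 with a ratio of 0.774 (7.36, next 6.97) and for Tspo with 0.606 (8.39, next 8.25).

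The remaining cases were low K289R arrays. Replicate 5 was lowest for Cyb5b with a ratio of 0.671 (10.50, next 10.86). For Hsd17b10, replicate 6 was lowest with 0.611 (10.65, next 10.93), and for Cyp39a1 replicate 7 was lowest with 0.595 (6.88, next 7.55).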

How the results depend on the processing

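Cyp17a1 and Hsd11b1 kept their direction under every alternative run, between 1.37 and 1.66 and between -0.737 and -0.659 when single arrays were left out. The same ranges were 0.672 to 0.948 for Hsd17b6, -0.227 to -0.159 for Akr1c6, -0.0178 to 0.0971 for Hsd3b5 and -0.171 to -0.0128 for Hsd17b2. The count of tested members that rose was 0 with sets as random blocks (Hsd17b6 0.778, adjusted p = 0.0656, correlation 0.178) and with replicates 5 to 7 alone (0.307, adjusted p = 0.454). The count that fell was 2, with Akr1c6 (-0.194) added, among genes above the median level (adjusted p = 0.0294) and with the replicate number as a block (adjusted p = 0.0495), and 1 to 2 without single arrays. The replicate block gave 1661 higher and 2177 lower genes, and of the 7 WT arrays only replicates 1 and 6 matched best with their own number. List genes that rose numbered 12 with random blocks, 8 with replicates 5 to 7 alone, and 16 to 21 without single arrays, where 14 to 21 fell. Over all genes 1610 rose and 2068 fell, against 2406 and 2028 after quantile normalization, 1102 and 1905 after median centring, 771 and 1405 with random blocks, 1332 and 1378 with replicates 1 to 4 alone and 363 and 1399 with replicates 5 to 7 alone. Vnn1 turned to -1.08 in that last set. Of the 41 other genes followed, 16 lost their call there and 6 with random blocks. The correlation of Cyp17a1 with Hsd3b5 passed after quantile normalization (-0.721, adjusted p = 0.049) and without WT replicate 3 (-0.803, adjusted p = 0.0203). Both shuffles were made within genotype and not within sets, so these p-values cannot separate the relation from the division into sets. With set means subtracted the coefficient over all arrays was -0.262. Leaving out K289R replicates 6 and 7, chosen after seeing the data because of their narrow spread, gave 1 member and 21 list genes higher, 1 and 15 lower. The cause of these changes was not tested.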

Other observations

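Cyp39a1, which hydroxylates an oxysterol on the way to bile acids, fell into separated levels among WT livers. WT replicates 1, 2 and 4 stood at 5.46, 5.47 and 5.53, and WT replicates 3, 5, 6 and 7 at 7.00, 8.06, 7.42 and 7.80. The lowest K289R liver stood at 6.88, and none was above WT replicate 5. The WT arrays with the lowest Cyp39a1 were also those with the lowest Cyp17a1, at 7.25, 7.13 and 7.13 in the same order. Cyp39a1 was picked for following Cyp17a1 among mice of the same genotype, so the choice itself favoured this agreement. Within WT livers the coefficient between both genes was 0.96, and within K289R livers it was 0.33, each over 7 arrays and given as a description.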
